A study of Mus musculus with 2 samples.

Results

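The Des-positive cells are 113 segmented cells of 1 intestinal section that carried transcripts of desmin (Des), the intermediate filament protein of muscle. They were chosen from the counts themselves. A cell was taken when it held at least 10 transcripts of the 140-gene panel, at least 2 of Des, and no more than 2 of the colonocyte genes Aqp8 (a water channel) and Slc26a3 (a chloride exchanger) together. They made up 8.997% (95% interval 7.47 to 10.7) of the 1256 cells with at least 10 panel transcripts in that table, and 113 of the 31893 cells of the whole series. The section is region 1 of replicate 2, a female C57Bl6 mouse whose age is labelled as 6 to 10 weeks and given as 6 weeks in the protocol. Replicate 1 is a male of the same strain and labelled age. Duodenum and colon of both animals were fixed in paraformaldehyde, frozen, sectioned and imaged with the MERSCOPE platform, which counts single transcripts in place. The labels name no genotype or treatment, and do not assign the regions to duodenum or colon. The same rule found 0 cells among the 55 and 4 deep cells of replicate 1 (regions 0 and 1) and 0 among the 77 of region 0 of replicate 2, where Des had 3, 0 and 10 transcripts in all against 1533 here. Every value below therefore comes from 1 section of 1 animal, so there was no replicate check and no test.

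The muscle of the gut wall forms an inner circular and an outer longitudinal layer, with a thin sheet under the mucosa, and smooth muscle also surrounds the vessels. Contraction starts when calcium enters through L-type channels, whose pore is encoded by Cacna1c, and myosin is then phosphorylated. Desmin filaments carry the force between the anchoring sites within the cell. Nerve fibres and ganglia lie between and within the muscle layers, next to enteric glia and fibroblasts, so a segmented muscle cell has neuronal, glial and stromal neighbours. Of the 39 genes of the muscle list, the panel carried Des, the kinase gene Dmpk and Cacna1c. The smooth muscle genes Acta2, Myh11, Tagln and Cnn1 were not on the panel, and it held none of the listed markers of interstitial cells of Cajal, endothelium, immune cells or pericytes. The muscle label could thus be checked only on Dmpk and Cacna1c.

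Des set the membership, so its counts are a description. A member held 2 to 24 Des transcripts, with a median of 5. Of the 113 cells, 20 held 2, 18 held 3, 16 held 4, 18 held 5, 10 held 6 and 31 held 7 or more. The members held 634 of the 1533 Des transcripts of the region (41.4%), against 4.62% of all its panel transcripts. They held 399 of the region's 1764 Dmpk transcripts (22.6%) and 19 of its 98 Cacna1c transcripts, so most of both lay outside the members. Just outside the Des threshold lay 59 cells with 1 Des transcript. Just below the depth threshold, 15 cells with 9 panel transcripts met the rest of the rule, while 13 members held exactly 10. The limit on Aqp8 and Slc26a3 removed no cell: all deep cells with at least 2 Des transcripts passed it, and 100 of the 113 had neither gene.

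The members were compared with the other 1143 cells of at least 10 transcripts. Of these, 542 held more than 2 Aqp8 and Slc26a3 transcripts and are called epithelial below, and 601 did not. The 601 are called non-epithelial by that limit alone and are a mixture that still holds epithelial transcripts. The 7 other epithelial genes of the panel were found in 69.9% of the 601 and 97.2% of the 542. Ezr was in 38.9% of the 601 and Cftr in 7.16%, against 88.01% and 0.369% of the 542. Within the 601, 215 cells with at least 3 transcripts of the stromal genes Fn1 and Vim are called stromal, a grouping chosen after the values were seen. The median depth was 16 panel transcripts in the members (10 to 78), 13 in the 601, 13 in the stromal cells and 22 in the epithelial cells. Levels are counts per 10000 transcripts of the panel genes left after Des, Aqp8 and Slc26a3 were taken out, since those genes set the members and the epithelial cells. The members held 1475 such transcripts and the others 17571. Fn1 and Vim, which set the stromal cells, were kept in. They gave 924 and 321 of the 3107 such transcripts of the stromal cells, against 263 and 44 of the members' 1475. Ratios of other genes against the stromal cells are raised by this, by an amount not computed. Brackets give exact 95% intervals, which cover counting error only and not the spread between animals or the clumping of transcripts in cells. A gene was counted as higher or lower when its level differed at least 2-fold and it had at least 20 transcripts over both groups. On that rule 28 of the 98 genes with enough transcripts were higher in the members (28.6%) and 27 were lower (27.6%), with a median ratio of 0.957. Against the 601 non-epithelial cells, 11 of 68 genes were higher (16.2%) and 28 were lower (41.2%), with a median ratio of 0.657. The split depends on the scale: Dmpk alone gave 27.05% of the members' transcripts on this scale and 1.79% of the others', and with Dmpk also taken out 39 genes were higher and 21 lower, against 21 and 33 on counts per cell. That change of scale moved every ratio by 0.43 (Dmpk out), -0.24 (per cell) and -0.12 (all 140 genes) on the log2 scale.

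Dmpk, the kinase gene whose repeat expansion causes myotonic dystrophy, had the highest ratio of the members to all others. It was found in 98 of the 113 members (86.7%, 79.05 to 92.4), with a median of 3 transcripts, quartiles of 1 and 5, and a highest value of 26. Of the 601 non-epithelial cells 150 carried it (24.96%), of the stromal cells 34.9%, and of the epithelial cells 9.04%, taken here as the background. The groups overlapped at 0 and 1, since 15 members had none and 18 had 1, but 35 members held 5 or more against 8 of the 601 and 0 of the epithelial cells. The Dmpk level was 2705 per 10000 (2446 to 2984) in the members against 178.7 in the others. The ratio was 15.1 (13.02 to 17.6) against all others, 8.55 (7.29 to 10.04) against the 601, and 6.78 (5.53 to 8.36) against the stromal cells. With each cell thinned to 10 transcripts, 78.5% of members and 20.8% of the 601 would be expected to show Dmpk. Those 10 could be of any panel gene, Des included.

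**Figure D1:**
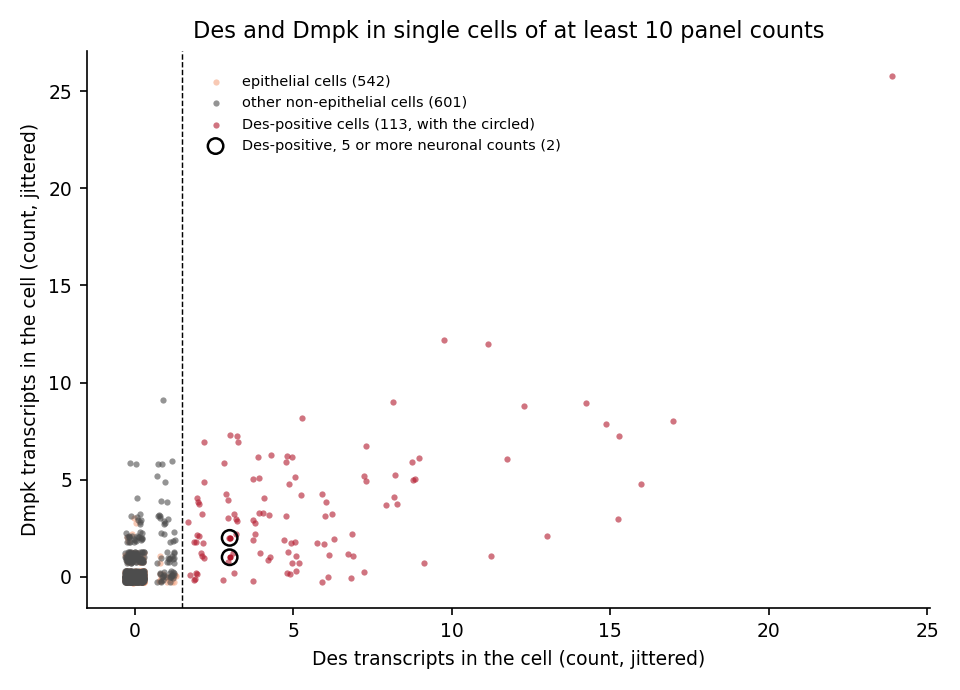
Des (horizontal) and Dmpk (vertical) transcripts per cell, each point 1 cell with at least 10 panel transcripts, jittered. The dashed line marks the rule of at least 2 Des transcripts; 98 of 113 members have Dmpk, up to 26, and the circles mark the 2 members with 5 or more neuronal transcripts.

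The promoter windows of these genes are shown because Des defines the cells and Dmpk had the highest ratio against all others. They come from RefSeq on GRCm38.p6 and run from 250 bases before to 50 bases after the gene's start, at chr1:75360042-75360341 (plus strand) and chr7:19083608-19083907 (plus strand). Capitals mark CAGCTG, an E-box form bound by basic helix-loop-helix factors, which reads the same on both strands.
Des: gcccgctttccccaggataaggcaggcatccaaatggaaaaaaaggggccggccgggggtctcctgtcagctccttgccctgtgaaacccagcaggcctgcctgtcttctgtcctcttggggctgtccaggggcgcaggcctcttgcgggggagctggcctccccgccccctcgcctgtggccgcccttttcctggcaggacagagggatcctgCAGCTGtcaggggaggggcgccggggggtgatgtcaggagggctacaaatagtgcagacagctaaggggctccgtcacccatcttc
Dmpk: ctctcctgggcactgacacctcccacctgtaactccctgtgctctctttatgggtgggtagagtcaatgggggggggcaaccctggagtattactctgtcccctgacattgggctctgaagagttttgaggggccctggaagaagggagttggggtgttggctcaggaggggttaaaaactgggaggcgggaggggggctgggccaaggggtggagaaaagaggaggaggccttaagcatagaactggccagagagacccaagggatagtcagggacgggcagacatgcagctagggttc
The Des window held 1 CAGCTG, whose first base lay 36 bases before the start, and the Dmpk window held 0. Of the 32851 windows in RefSeq's promoter set, 16.3% held at least 1. The CArG box, the motif of serum response factor, had 0 matches in either window and was present in 1.63% of all windows, with both strands read. These are matches of letters and say nothing of binding.

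The Dmpk level followed the Des count beyond the rule's edge. It stood at 222 per 10000 (189.0 to 258.5) in the 542 non-epithelial cells with no Des, 1180 (955 to 1443) in the 59 cells with 1 Des transcript, 1928 (1396 to 2597) in members with 2, 2222 (1816 to 2693) in members with 3 or 4, and 3214 (2830 to 3637) in the 59 members with 5 or more. Neighbouring bins among the members overlapped in their intervals, except the last 2, which do not. The share of cells with Dmpk was 21.03%, 61.02%, 75%, 91.2% and 88.1% in the same order. Across the 113 members the 2 counts had a Pearson correlation of 0.59 and a Spearman correlation of 0.33, but both followed the cell's total (Pearson 0.68 for Des and 0.66 for Dmpk), and as shares of the total they had -0.03 and 0.04. The epithelial linker gene Ezr went the other way, from 537 in the non-epithelial cells with no Des to 25.5 in members with 5 or more. Of those non-epithelial cells 40.96% held Ezr.

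**Figure D2:**
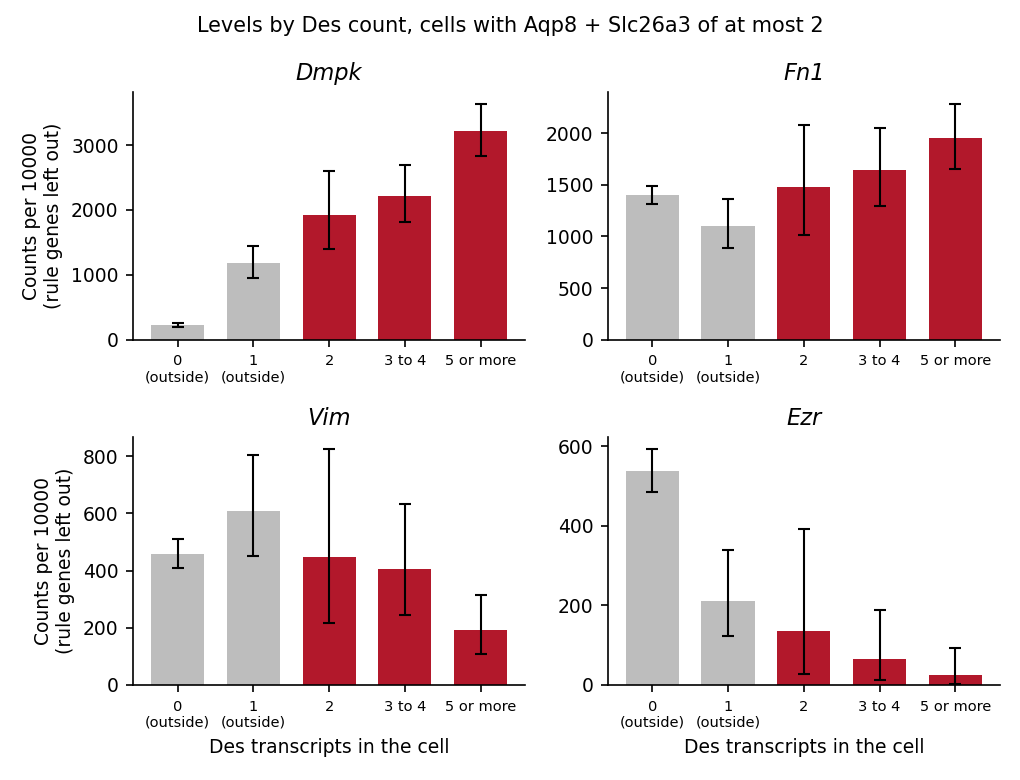
Levels of Dmpk, Fn1, Vim and Ezr in counts per 10000 with the rule genes left out (vertical, from 0) by the number of Des transcripts in the cell (horizontal), with exact 95% counting intervals. Red bars are members and grey bars are cells outside the rule; Dmpk goes from 222 at no Des to 3214 at 5 or more.

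Cacna1c, the L-type calcium channel gene, was sparse but more frequent in the members than in the other deep cells. It was seen in 17 of 113 members (15.04%), as 16 cells with 1 transcript and 1 cell with 3, against 1.83% of the 601 and 0.923% of the epithelial cells. The level was 129 per 10000 (77.6 to 201) on 19 transcripts against 9.68 on 17, a ratio of 13.3 (6.55 to 27.3), 8.76 (4.04 to 19.8) against the 601 and 13.3 (3.93 to 70.4) against the stromal cells. Of the 17 Cacna1c members 14 also held Dmpk. In all, 101 of the 113 members carried Dmpk or Cacna1c and 12 carried neither.

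Some other genes of calcium and ion handling were also higher in the members, where 28.6% of all genes were. No list of such genes was fixed beforehand. The ion channel genes Kcnn4 and Cftr went the other way and were among the 15 lowest. Slc24a3, an exchanger that moves calcium out of the cell against sodium and potassium, was found in 18 members (15.9%) against 2.995% of the 601 and 4.80% of the epithelial cells. Its level was 129 per 10000 against 25.6, a ratio of 5.03 (2.78 to 8.78), and 5.53 (2.77 to 11.04) against the 601. Slc8a1, the sodium-calcium exchanger gene, was found in 14 members (12.4%) with 1 transcript each, at a ratio of 2.65 (1.37 to 4.78). Ano6, a calcium-activated scramblase and channel gene, was found in 17 members (15.04%) against 4.66% of the 601, at 129 per 10000 against 19.4 and a ratio of 6.66 (3.59 to 12.01). These 3 genes kept a ratio of at least 2 against the 601, with Slc8a1 at 2.98 (1.44 to 5.92) and Ano6 at 3.39 (1.81 to 6.19). Cacna1e, the R-type calcium channel gene known from neurons, had 12 transcripts in 9 members and a ratio of 4.61 (2.16 to 9.24). A single cell held 4 of them, 1 of the 2 neuron-rich members described below, and without those 2 cells the ratio was 3.27 (1.297 to 7.26).

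**Figure D3:**
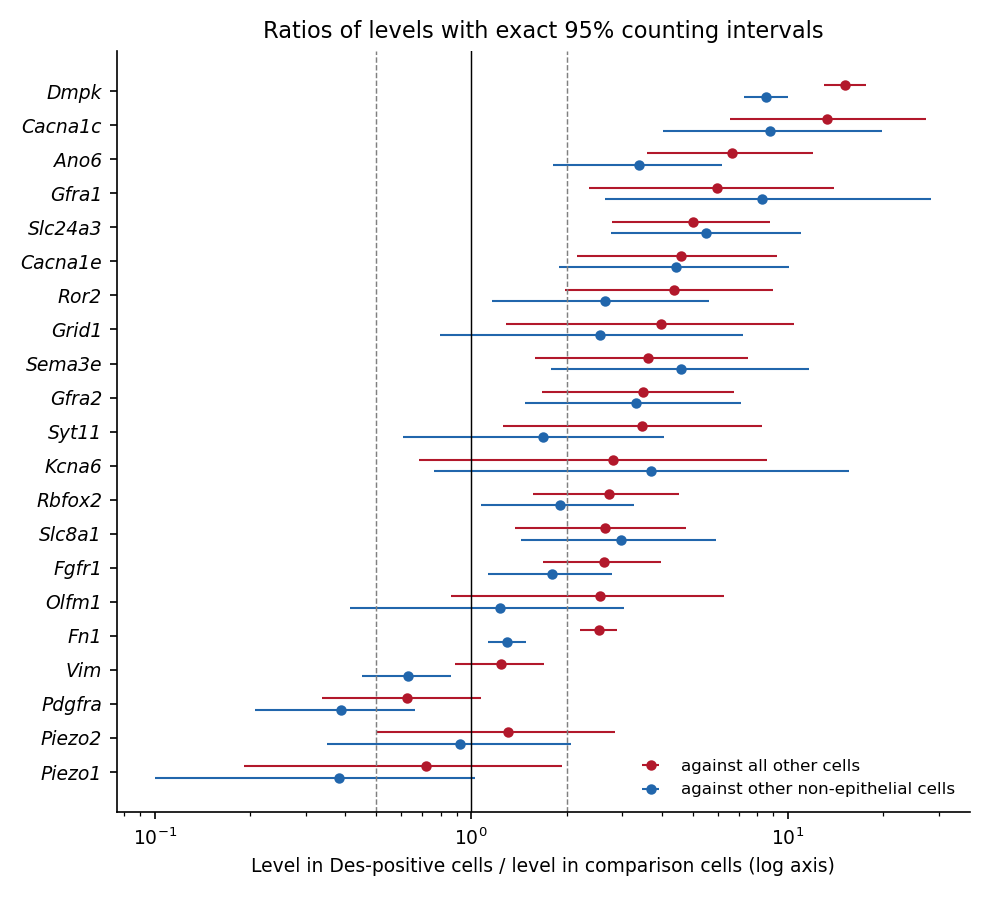
Ratio of the level in Des-positive cells to that in all other cells (red) and in the 601 other non-epithelial cells (blue), on a log axis with exact 95% counting intervals; dashed lines mark 0.5 and 2. Dmpk and Cacna1c lie highest against all others, at 15.1 and 13.3. Fn1 goes from 2.53 to 1.298 and Vim from 1.25 to 0.632 when cells with more than 2 Aqp8 and Slc26a3 transcripts are left out.

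Receptors and co-receptors for neurotrophic, Wnt and growth factor ligands were each present in a minority of members. Gfra1 and Gfra2 encode the co-receptors for glial cell line-derived neurotrophic factor and neurturin. Gfra1 had 9 transcripts in 9 members (7.96%) against 0.998% of the 601 and 2.21% of the epithelial cells, a ratio of 5.96 (2.36 to 13.96). Of these 9 members 7 held 5 or more Des transcripts, as did 59 of all 113 members. Gfra2 had 12 transcripts in 11 members (9.73%) against 3.33% of the 601, a ratio of 3.49 (1.67 to 6.76). Each of the 2 neuron-rich members held 1 Gfra2 transcript, and without those 2 cells its ratio was 3.09 (1.38 to 6.26). Both neurotrophic genes of the panel were thus higher than in all others, where 28.6% of all genes were. Against the 601, Gfra2 stood at 3.32 (1.48 to 7.13), and Gfra1 had 15 transcripts over both groups, too few to count. Ror2, a receptor for Wnt ligands, was found in 11 members with 1 transcript each and had a ratio of 4.37 (1.98 to 8.97), or 2.65 (1.16 to 5.65) against the 601. Fgfr1, a fibroblast growth factor receptor gene, had 28 transcripts in 21 members and a ratio of 2.63 (1.68 to 3.98), which was 1.80 (1.13 to 2.79) against the 601. Of the 4 growth factor receptor genes, Fgfr1 and Tgfbr3 were higher and Egfr, the epidermal growth factor receptor gene, was lower, at 2 transcripts in the members and a ratio of 0.331 (0.0393 to 1.24), while Pdgfra passed in neither direction.

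Among the 7 guidance genes of the panel, 4 had enough transcripts and 3 were higher, beside 28.6% of all genes. Sema3e, a secreted semaphorin gene, was found in 10 members (8.85%) with 1 transcript each against 1.997% of the 601, at a ratio of 3.61 (1.59 to 7.499) and of 4.61 (1.78 to 11.6) against the 601. Nrp1, a semaphorin and growth factor co-receptor gene, stood at 2.25 (1.18 to 4.02) and Slit3, a secreted ligand of Robo receptors, at 2.10 (1.15 to 3.59). Against the 601 Nrp1 stood at 1.34 (0.688 to 2.42) and Slit3 at 1.05 (0.576 to 1.81). Both were thus under 2-fold once cells with more than 2 Aqp8 and Slc26a3 transcripts were left out. Nrp2 was lower than in the 601, at 0.47 (0.209 to 0.925), where 41.2% of all genes were lower. The remaining genes among the 15 highest outside the muscle, neuronal, glial and Piezo lists were Grid1, Syt11, Kcna6, Rbfox2 and Olfm1, with ratios of 2.55 to 3.97, and Fn1. Kcna6 rested on 4 transcripts and Olfm1 on 6, and their intervals spanned 1. Against the 601, Rbfox2 at 1.91, Syt11 at 1.68 and Olfm1 at 1.23 were under 2-fold, and Grid1 and Kcna6 had too few transcripts to count. A single neuron-rich member held 3 of the 6 Olfm1 transcripts, and without the 2 such members its ratio was 1.36 (0.264 to 4.39).

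The fibronectin gene was found in most members, while the fibroblast receptor gene Pdgfra was found in few. Fn1, which encodes fibronectin, was found in 95 members (84.07%), with a median of 2 and a highest value of 13 transcripts, against 60.07% of the 601 and 17.3% of the epithelial cells. Its level was 1783 per 10000 (1574 to 2012) against 704 in all others and 1373 in the 601, ratios of 2.53 (2.21 to 2.90) and 1.298 (1.13 to 1.49). Col12a1, a fibril-associated collagen gene, was found in 20 members (17.7%) and stood at 156 per 10000 against 145 in the 601, a ratio of 1.08 (0.658 to 1.70). Vim, the intermediate filament gene of mesenchymal cells, was found in 25 members (22.1%) against 32.95% of the 601, and its ratio was 0.632 (0.452 to 0.865) there. Within the members Vim had 448 per 10000 (215 to 825) at 2 Des transcripts, 406 (244 to 634) at 3 or 4 and 191 (107 to 316) at 5 or more, with intervals that overlap. Pdgfra, the fibroblast receptor gene, was found in 10 members (8.85%) against 20.1% of the 601 and 10.7% of the epithelial cells. Its ratio was 0.387 (0.208 to 0.665) against the 601 and 0.324 (0.17 to 0.572) against the stromal cells. Of the 7 stromal and matrix genes with enough transcripts, Fn1, Tgfbr3 and Slit3 were higher than in all others and none was lower, with a median ratio of 1.94 beside 0.957 over all genes, of which 28.6% were higher. Against the 601, 0 of the 7 were higher and Pdgfra and Col18a1 were lower, where 41.2% of all genes were lower. Tgfbr3 and Col18a1 encode a co-receptor for transforming growth factor beta and a basement membrane collagen; they, Nrp1, Nrp2 and Egfr lay outside the rule for named genes and were chosen after their values were seen.

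Epithelial transcripts were scarce in the members. All 6 epithelial genes with enough transcripts that the rule did not use were lower, with a median ratio of 0.0732, where 27.6% of all genes were lower. Ezr was found in 7 members (6.19%) against 88.01% of the epithelial cells, and its level of 54.2 was 27.7-fold (14.02 to 64.1) below that of all others. Prdx6, a peroxidase gene, had 1 transcript in the members and 888 in the others. Gucy2c, the guanylin receptor gene, had 1 against 285, Kcnn4, a calcium-activated potassium channel gene, 1 against 114, and Shroom3 16 against 1681. Cftr, the chloride channel gene of crypts, had 0 in the members against 49, and its exact interval began at 1.07-fold lower. For Pcsk5, with 0 against 78, the interval began at 1.73-fold lower. Outside the list, the actin-binding profilin gene Pfn1 had a ratio of 0.262 (0.167 to 0.392) and Ctnnb1, which encodes beta-catenin, 0.265 (0.167 to 0.399). Both were also lower against the 601, at 0.283 (0.18 to 0.426) and 0.327 (0.205 to 0.498), where 41.2% of all genes were lower. Other genes among the 15 lowest were Clec2h, Ppard, Atp10b, Adipor2 and Cracr2a, with ratios of 0.0889 to 0.216.

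Of the 45 neuronal transcripts in the members, 2 cells held 13 and 9. The transcripts came from 10 neuronal genes of the panel and lay in 19 members (16.8%, 10.4 to 25.01), against 8.99% of the 601 and 20.9% of the epithelial cells. Thinned to 10 transcripts per cell the shares were 9.20%, 7.04% and 8.66%. These draws included Des, Aqp8 and Slc26a3. Without those genes the members kept 1475 of 2123 transcripts, the 601 kept 8156 of 8476 and the epithelial cells 9415 of 14724. Depth in the remaining genes was thus not equal across these groups after thinning. Syt4 gave 59 of the 138 neuronal transcripts of the epithelial cells, and whether those are background or expression was not tested. The summed level was 2.08-fold (1.45 to 2.93) that of the epithelial cells. The level was 305 per 10000 (223 to 408) in the members against 133 in all others, a ratio of 2.30 (1.63 to 3.18). Of the 113 members 94 had none, 12 had 1, 4 had 2, 1 had 3, and the remaining 2 had 9 and 13. Without these 2 cells, a choice made after seeing them, the neuronal level was 166 per 10000 and the ratio 1.25 (0.776 to 1.92).

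The first of these cells held 48 panel transcripts, with 7 of Sncg (gamma-synuclein), 4 of Cacna1e, 3 of Des, 2 of Dmpk and 1 each of Cacna1c, Syt1, Syt4, Snap25, Stmn2, Tubb3 and the nicotinic receptor gene Chrna3. The other held 45, with 5 of Sncg, 3 of Des, 1 of Dmpk, 1 each of Syt1, Snap25, Dlgap1, Chrna3 and Piezo1, and 3 of Olfm1. They were among the 5 deepest members. Sncg stood at 94.9 per 10000 (51.9 to 159) in all members, a ratio of 6.67 (3.21 to 13.3), on 14 transcripts in 4 cells. Without the 2 cells it had 2 transcripts and a ratio of 1.01 (0.116 to 4.06). Among the other 1143 cells 3 held 5 or more neuronal transcripts, and 2 of those 3 carried a Des transcript. How transcripts were assigned between neighbouring cells was not tested.

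Of the 7 neuronal genes with enough transcripts, Sncg and Syt1 were higher, with a median ratio of 1.25, beside 28.6% of all genes and a median of 0.957. Against the 601, both neuronal genes with enough transcripts, Sncg at 3.69 (1.73 to 7.60) and Syt4 at 2.21 (0.703 to 6.03), were higher, beside 16.2% of all genes. Without the 2 cells neither was 2-fold higher, with Sncg at 0.559 (0.0636 to 2.29) and Syt4 at 1.96 (0.556 to 5.67). Syt1, a calcium sensor of synaptic vesicles, had 5 transcripts in 5 members, a ratio of 3.72 (1.07 to 10.6). Stmn2, a growth-associated tubulin-binding gene, had 5 in 5 members and 10 in the others, and Elavl4, a neuronal RNA-binding gene, 2 and 5. Snap25, of the synaptic fusion complex, had 4 transcripts in the members and a ratio of 1.22 (0.317 to 3.39). Syt4 had 6 transcripts, found in 4.42% of members and 9.41% of epithelial cells. Tubb3, Dlgap1, Pclo and Chrna3 had 1 to 3 transcripts each. The highest blank barcode, a code that matches no gene, had 6 transcripts in the members, and of the 10 genes Sncg alone exceeded it.

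Glial transcripts were few in the members. The 6 glial genes gave 14 transcripts in 12 members (10.6%, 5.61 to 17.8), against 7.49% of the 601 and 10.5% of the epithelial cells, and no member held more than 2. The thinned shares were 5.24%, 5.07% and 3.99%, and the level was 1.52-fold (0.781 to 2.75) that of the epithelial cells, an interval that spans 1. The summed level was 94.9 per 10000 (51.9 to 159) against 60.9, a ratio of 1.56 (0.824 to 2.73), or 1.61 (0.821 to 2.97) against the 601. Sox10, the transcription factor gene of the glial lineage, had 3 transcripts in the members, Cdh19 had 3, S100b and Ptprz1 2 each and Gfap 1, and no gene of the list exceeded the highest blank. None of the 3 genes with enough transcripts was 2-fold higher or lower, among them S100b at 0.567 (0.0665 to 2.18) and Cdh19 at 1.62 (0.311 to 5.41). Neuronal and glial transcripts met in 5 members.

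Both Piezo channels, which open when the membrane is stretched, were rare in the members. Piezo2 had 7 transcripts in 6 of 113 members (5.31%, 1.97 to 11.2), against 5.16% of the 601, 7.91% of the stromal cells and 4.06% of the epithelial cells. The level was 47.5 per 10000 (19.1 to 97.8) in the members, 36.4 in all others, 51.5 in the 601 and 77.2 in the stromal cells. The ratio was 1.303 (0.504 to 2.84) against all others, 0.922 (0.349 to 2.07) against the 601 and 0.614 (0.224 to 1.47) against the stromal cells, and each interval spans 1. Of the 6 Piezo2 members, 5 held Dmpk, 4 held Fn1, 2 held a neuronal transcript, 1 held a glial one and 0 held Pdgfra. Over all members these shares were 86.7%, 84.07%, 16.8%, 10.6% and 8.85%, and 6 cells are too few to tell a difference. Piezo1 had 4 transcripts in 4 members (3.54%, 0.973 to 8.82), each with Dmpk, against 8.32% of the 601, 12.6% of the stromal cells and 1.48% of the epithelial cells. Its ratio was 0.722 (0.191 to 1.94) against all others and 0.381 (0.101 to 1.03) against the 601. The latter counts as lower, as did 41.2% of all genes there, and rests on 4 transcripts in the members. Against the stromal cells the ratio was 0.255 (0.0657 to 0.718), with Piezo1 at 106 per 10000 there and 27.1 in the members. Piezo1 did not exceed the highest blank in the members, and Piezo2 exceeded it by 1 transcript. No member held both channels (0 of 113, exact interval up to 3.21%). With Piezo1 in only 4 members and Piezo2 in 6, few or none would be expected to hold both. The 0 therefore does not show that the channels lie in different cells. Of the 113 members 81 (71.7%) held no neuronal, glial or Piezo transcript.

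**Figure D4:**
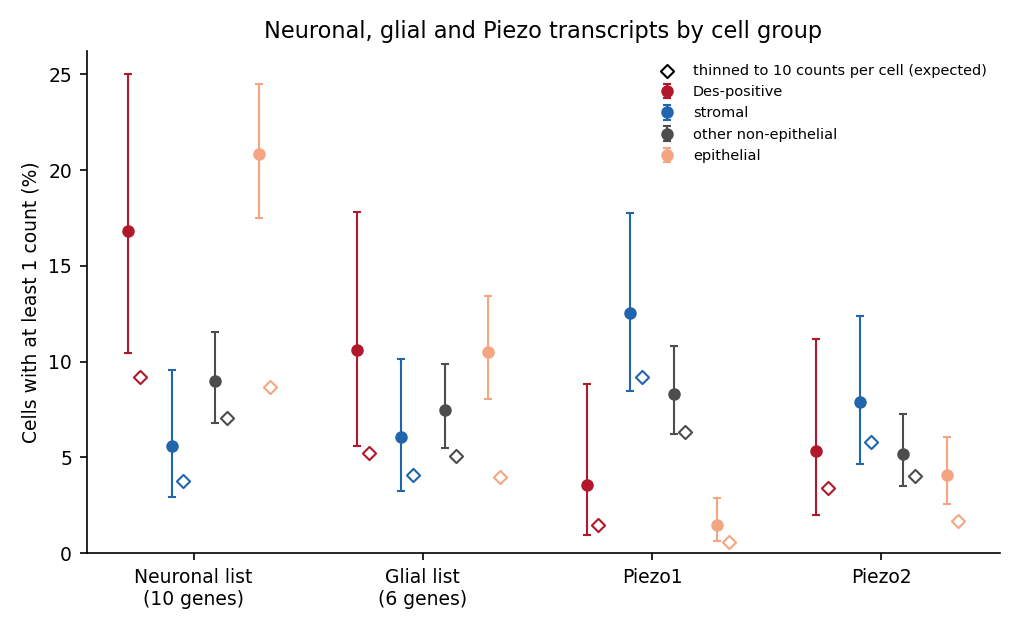
Share of cells with at least 1 transcript of the neuronal list, the glial list, Piezo1 or Piezo2 (vertical, percent) in 4 cell groups, with exact 95% binomial intervals; open diamonds are the expected shares after thinning each cell to 10 transcripts. The neuronal share is 16.8% in members and 20.9% in the deeper epithelial cells, or 9.20% and 8.66% after thinning, and Piezo1 is found in 3.54% of members and 12.6% of stromal cells.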

How the data were processed

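Per the file headers and the labels, the authors deposited 1 table of raw counts per imaged region, with transcripts of 140 genes and 40 blank barcodes in each segmented cell (4 tables, 2 animals). The submitters' processing notes name Seurat. How transcripts were decoded and cells segmented is not given in the sources used here. The replicate numbers follow accession order. All 140 symbols matched the RefSeq gene table, and no cell identifier was shared between tables. Members were taken by the rule above. Levels, exact Poisson intervals, exact binomial intervals for shares (Clopper-Pearson) and conditional binomial intervals for ratios were computed with Python 3.11.15, numpy 2.4.6, scipy 1.17.1 and pandas 2.3.3, at 95%, and the interval code was tested on simulated data. Thinned shares are the expectation over draws of 10 transcripts per cell from all 140 panel genes. No doublets were removed and no transcript was reassigned between neighbours. The region held 45942 panel counts, with a median of 1 per cell, and 1.22% of all counts on blanks. Genes of the muscle, neuronal, glial and Piezo lists could be named freely, and of other genes up to 15 in each direction by ratio, and the 10 listed genes with the most counts. Members and lists were chosen with earlier results of these data known. A few genes of the panel are not reported here.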

Additional observations from a re-analysis of the deposited data

How the results depend on the processing

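The cell number moved with the rule, from 113 to 172 at 1 Des count, 207 at 5 panel counts and 33 at 20, and stayed at 93 to 113 under the other limits. Lists are ratios of summed levels (main values 15.04 muscle, 2.30 neuronal, 1.96 stromal, 1.01 Piezo). At a panel total of at least 20 the muscle ratio was 32.3, the neuronal 3.40, the stromal 3.62, with 17 genes higher. At a total of at least 5, muscle was 10.7 and stromal 1.54. Per cell, muscle was 12.8 and stromal 1.67. Against other cells with no Des count muscle was 20.01. Against the 601 non-epithelial cells muscle was 8.56 and stromal 1.04, with 11 genes higher. The next settings were chosen after seeing the data. With Dmpk out of the denominator, muscle was 20.3 and stromal 2.64. Against stromal cells only, muscle was 6.93, neuronal 7.90 and Piezo 0.407, with 9 genes higher and 13 lower. Without the 2 neuron-rich members, neuronal was 1.25. In cells of 5 to 9 counts, muscle was 7.28 and stromal 1.07, with 12 genes higher. Of the named genes at least 2-fold higher, those that reversed were Kcna6 (0.937) at a total of at least 20, Ano6 (0.505), Cacna1e (0) and Fgfr1 (0.854) in cells of 5 to 9 counts, and Olfm1 (0.843) against stromal cells. Genes under 2-fold also crossed 1: Vim (main 1.25) was 0.632 against the 601, 0.872 at a total of at least 5, 0.999 with no Aqp8 or Slc26a3 and 0.349 at 5 to 9 counts, Piezo1 (0.722) was 1.74 at a total of at least 20 and 1.09 at 1 Des count, and Piezo2 (1.303) was 0.986 at a total of at least 5, 0.941 without its highest cell, 0.922 against the 601, 0.614 against stromal cells and 0.447 at 5 to 9 counts. The cause was not tested. Of 292 comparisons of 21 single genes, 253 lay within the interval of the main value without reversing a 2-fold difference. Some settings only rescaled every ratio, the settings share cells, and some intervals are wide (Kcna6 0.686 to 8.59). The tally is thus no measure of robustness. No paired analysis was possible because the comparison lies within 1 animal. Depth limits every gene with few transcripts: a count of 3 in the members is 20.3 per 10000.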

Other observations

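Shallower cells, which the rule left out, showed part of the same pattern. Among the 1651 cells of 5 to 9 panel transcripts, 94 held at least 2 Des and no more than 2 Aqp8 and Slc26a3 transcripts. Dmpk had 116 transcripts there, was found in 65.96% of these cells, and had a ratio of 7.38 (5.94 to 9.12) to the other cells of that depth. Cacna1c had 6 transcripts and a ratio of 5.81 (1.94 to 14.6). Vim stood at 0.349 (0.127 to 0.767) and Fn1 at 1.40 (1.08 to 1.79). Ano6, higher in the deeper members, had 1 transcript here and a ratio of 0.505 (0.0125 to 2.96). Piezo2 had 1 transcript and Piezo1 had 2. A further 57 cells with at least 2 Des transcripts held fewer than 5 panel transcripts.

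Dmpk was also found without Des. Of the 601 non-epithelial cells outside the rule, 32 held at least 2 Dmpk and no Des transcript (5.32%), against 5 of the 542 epithelial cells (0.923%). In the stromal cells they were 17 of 215 (7.91%). Cells with at least 5 Dmpk transcripts and no Des numbered 2 of 601.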
